A study of Mus musculus with 6 samples.

Results

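Long intergenic noncoding RNAs (lincRNAs) that were measurable in arthritic synovial fibroblasts (SFs) numbered 77, of 4255 genes listed with the biotype lincRNA in the table of 49548 mouse genes. They were chosen by level: a lincRNA was kept where its normalized count, the authors' read count divided by 1 factor per library, reached 10 in 3 or more of the 6 libraries. Of the lincRNA genes, 793 were above 0 somewhere in the 6 libraries, and 1.81% passed the filter, compared with 50.25% of protein-coding genes. The rule used the level of each gene and not the difference between the groups. The 13 lincRNAs that passed with exactly 3 libraries had means of 8.5 to 13.5 normalized counts, and the 13 that failed with 2 libraries had means of 4.5 to 9.33.

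The cells were cultured SFs from ankle joints of hTNFtg mice, aged 8 weeks and of CBA C57BL/6J background, which carry a human TNF transgene and develop a polyarthritis resembling rheumatoid arthritis. Every library therefore came from hTNFtg cells, and healthy cells were not part of this comparison. One group of 3 libraries came from cells with no treatment by the labels, although the methods speak of vehicle, and the other group of 3 came from cells kept for 48 hours with 500 μM amisulpride, a drug used against psychosis. The methods describe 3 biological replicates and a depletion of CD45+ blood cells during culture. The library kit primes on poly(A) and reads the 3′ end of transcripts, and the libraries held approximately 2.52 to 4.71 M reads.

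LincRNAs are transcripts that lie between protein-coding genes and are not known to be translated. Some act in the nucleus, where they hold nuclear bodies together or guide chromatin regulators, whereas others mainly carry small nucleolar RNAs (snoRNAs) or microRNAs in their introns or exons, and these are released as the host is processed. Most are low in abundance and vary between tissues. In fibroblasts the nuclear transcripts Neat1 and Malat1, the imprinted transcripts Meg3 and H19, and several snoRNA hosts are among the familiar ones.

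Because a 3′ kit reads the end of a transcript, the annotated ends of the members that carry the main results are shown first. Not all reads need fall at these ends. Mir1906-1, a small gene 3540 bases after the start of Meg3, had 18.9% to 28.3% of the Meg3 value, as given below. Meg3 and AU020206 ended with the usual poly(A) signal, AATAAA, in capitals in the lines below, 18 and 24 bases before the last base. Both were taken from GENCODE M21 transcripts on the mouse build GRCm38 (mm10), Meg3 from chr12:109571667-109571726 on the plus strand and AU020206 from chr7:75769038-75769097 on the minus strand.
Meg3: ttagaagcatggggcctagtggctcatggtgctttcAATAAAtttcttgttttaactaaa
AU020206: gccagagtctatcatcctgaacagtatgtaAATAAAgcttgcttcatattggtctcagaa

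The long form of Neat1 and the mature form of Malat1 are known to end differently: RNase P cuts beside a tRNA-like fold, and the new end is protected by a triple helix of U-rich and A-rich stretches in place of a poly(A) tail. The 2 genes are neighbors on chromosome 19, both on the minus strand, and the last 60 bases before that cleavage-type end are set side by side, with the shared A-rich run AAAAGCAAAA in capitals. They lie at chr19:5824708-5824767 and chr19:5795982-5796041.
Neat1: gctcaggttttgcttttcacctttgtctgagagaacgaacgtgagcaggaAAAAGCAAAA
Malat1: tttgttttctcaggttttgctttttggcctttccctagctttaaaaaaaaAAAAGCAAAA

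The longest run of letters that both windows shared before the A-rich end was the 16-base U-rich stretch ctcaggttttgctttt, which lay 33 bases before the run in Neat1 and 26 bases before it in Malat1. The annotated Neat1 transcript stopped at this motif, whereas the annotated Malat1 transcript went on for another 292 bases. AAAAGCAAAA, searched on the transcribed strand only, was present in the transcripts of 460 of 12591 genes with a sequence (3.65%) and in 3 lincRNAs, the third being 2310001H17Rik. The longer Malat1 model ended with AATAAA, 16 bases before its last base at chr19:5795690-5795749, as the next line shows with the signal in capitals.
Malat1: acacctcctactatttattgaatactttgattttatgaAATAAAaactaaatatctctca

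Of the 76 lincRNAs with a transcript sequence, 46 (60.5%) had AATAAA within the last 50 bases, 6 (7.90%) had only the variant ATTAAA, and 24 (31.6%) had neither, with only the transcribed strand searched. The shares were 64.1%, 14.8% and 21.1% among the 11025 protein-coding genes that passed. A missing motif says only that these letters are not in the window of the annotated end.

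The lincRNAs covered a wide range of levels. Neat1, whose long form is the scaffold of paraspeckles, was the most abundant with a mean of 3585 normalized counts over 6 libraries. This value is for the whole gene, so the level of the long form was not measured apart. The kit primes on poly(A), and how far the forms of Neat1 and Malat1 without a poly(A) tail were counted was not tested. Meg3 followed with 2291, and Malat1, a transcript of nuclear speckles, with 1350. Another 13 had means of 100 to 1000, 29 of 20 to 100, and 32 were under 20. The median was 26 normalized counts, compared with 84.7 for the protein-coding genes that passed. A total of 45 reached 10 in all 6 libraries. In 19 lincRNAs at least 1 library was at or below the value of 3 reads, 2.50 to 5.37 normalized counts according to the library, the most that a count of 0 allows. Levels of different genes were not scaled by length, since a 3′ kit gives reads from 1 end, and the order of the levels is that of normalized counts.

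**Figure D1:**
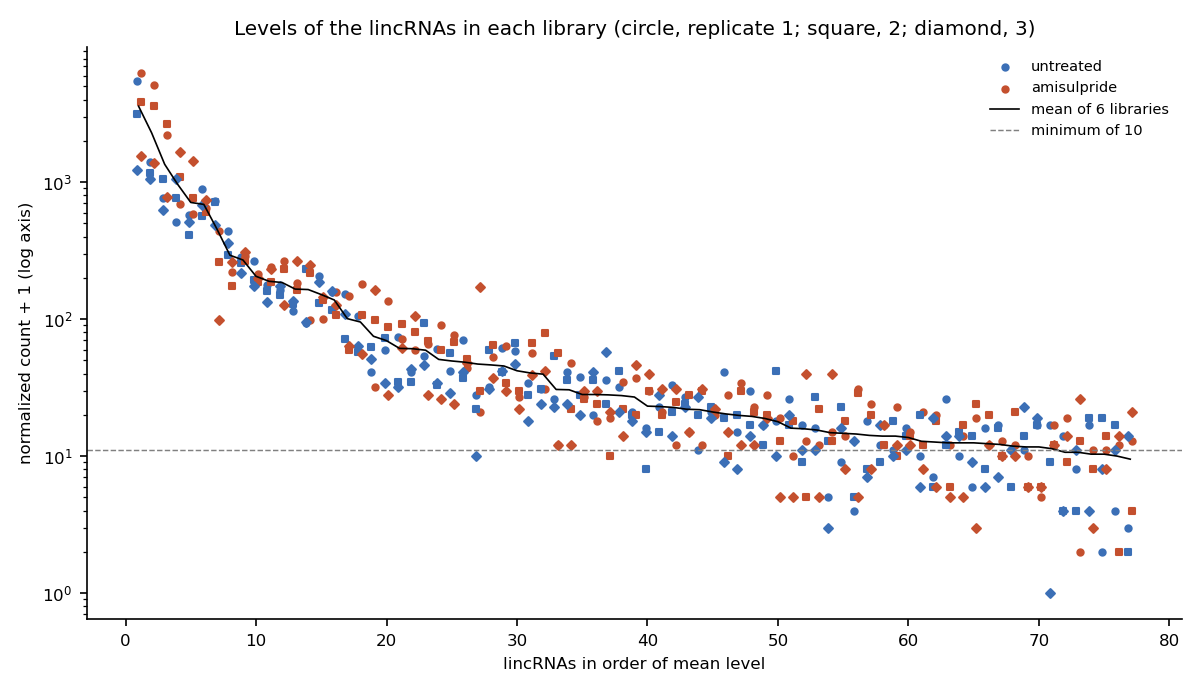
Normalized counts plus 1 (log axis) of each lincRNA in each of the 6 libraries, in order of mean level (black line), with untreated libraries in blue and amisulpride libraries in red. The 3 at the left have means above 1000, and most of the others lie below 100, close to the minimum of 10 (dashed).

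The lincRNAs took 0.350%, 0.289% and 0.218% of the library value in untreated replicates 1, 2 and 3, and 0.498%, 0.414% and 0.247% in amisulpride replicates 1, 2 and 3. The share was higher in the treated library of each number, although the ranges of the groups overlapped. Neat1, Meg3 and Malat1 together made up 54.9%, 48.8% and 33.9% of the lincRNA value in the untreated libraries and 69.2%, 62.0% and 33.3% in the treated ones. Replicates with the same number had related deviations over all genes. The numbers were therefore taken to pair the libraries, although the labels link them by replicate number only. Over the 77 lincRNAs the correlations of these deviations were 0.119, 0.221 and 0.217 for same-numbered libraries. For the other combinations they were -0.231 to 0.091. Amisulpride replicate 3 stood apart on the first principal component of all genes, at 73.9 against -38.2 to 10.4 for the other 5 libraries. It was also the library with the fewest reads, approximately 2.52 M, and the fewest genes above 0, 16851. Amisulpride replicate 2 had the next fewest reads, approximately 2.94 M.

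To ask which lincRNAs differed with amisulpride, the groups were compared by limma over all 12614 genes that passed the same filter. By the study thresholds, a log2 fold change of 1 or more in either direction and an unadjusted p under 0.05, 6 lincRNAs were higher and 4 were lower in treated cells. These are 10 of 77 (13.0%), beside 5.70% of all genes tested, with 7.79% against 2.69% for the higher and 5.19% against 3.01% for the lower direction. When the libraries were scaled to equal totals, 3 were higher and 4 lower (9.09%, against 5.83% of all genes). No lincRNA had a Benjamini-Hochberg adjusted p under 0.05 in limma, where the lowest was 0.208 and 0.285% of all genes passed. An unadjusted p under 0.05 was found for 13 lincRNAs (16.9%, against 10.9% of all genes). With the replicate number as a block, 2 lincRNAs passed the adjusted threshold (2.60%, against 2.08% of all genes), namely Meg3 and AU020206, and 11 were past the study thresholds (14.3%, against 6.61%). Without untreated replicate 3 the number past the study thresholds was 5 of the 71 lincRNAs that still passed the filter (7.04%, against 4.85% of all genes). Without amisulpride replicate 3, which stood apart, 7 were higher and 3 lower of 74 (13.5%, against 6.25%), and Meg3 and Malat1 passed the adjusted threshold.

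The median log2 fold change of the 77 lincRNAs was 0.25, and that of all genes tested was 0.00. The median fell to 0.03 when untreated replicate 3 was left out and to 0.01 when amisulpride replicate 1 was. A total of 46 lincRNAs (59.7%) had a log2 fold change above 0, compared with 50.1% of all genes. The 3 treated values lay entirely above the untreated ones for 7 lincRNAs (9.09%, against 7.80% of all genes) and entirely below them for 6 (7.79%, against 8.66%). Together these are 16.9%, near the 16.5% of all genes. The treated value was higher in all 3 pairs for 18 lincRNAs (23.4%, against 16.9% of all genes) and lower in all 3 pairs for 11 (14.3%, against 17.8%). By level, 3 of 16 lincRNAs with a mean of at least 100 were past the study thresholds (18.8%, against 3.49% of all genes at that level). At 20 to 100 the number was 5 of 29 (17.2%, against 6.70%), and below 20 it was 2 of 32 (6.25%, against 9.69%). The median SE of the log2 fold change was 0.29, 0.42 and 0.61 in these 3 bands, so that differences among the lowest lincRNAs were measured least precisely.

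**Figure D2:**
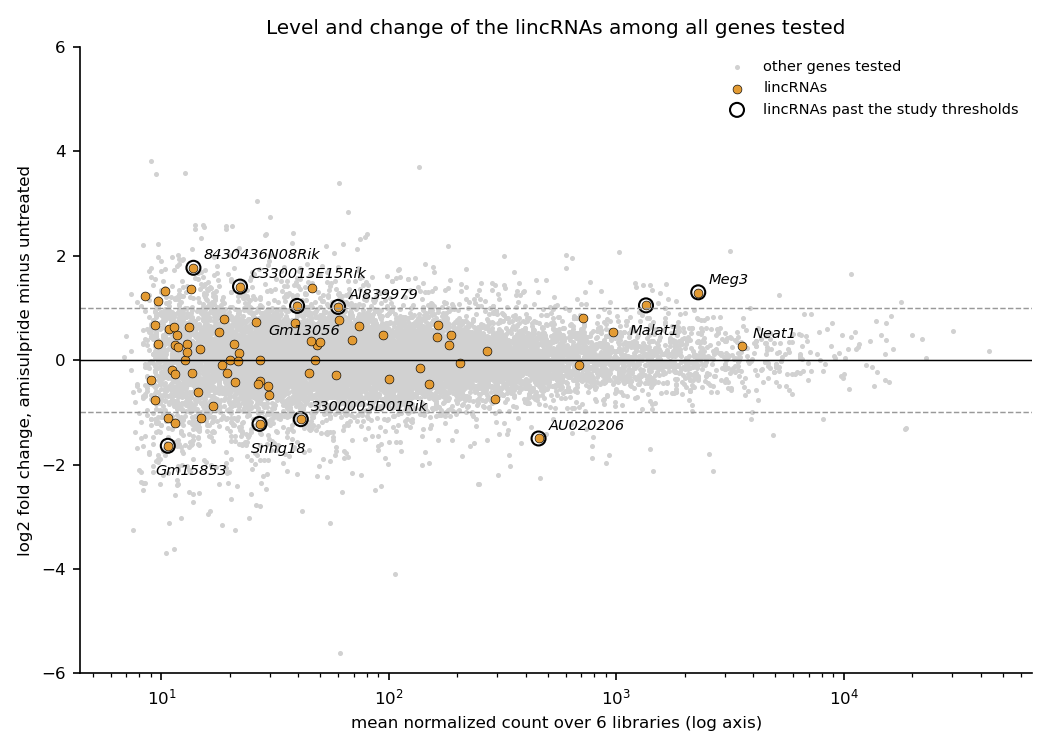
Log2 fold change (amisulpride minus untreated) against the mean normalized count of 6 libraries (log axis) for all 12614 genes tested (gray) and the 77 lincRNAs (orange), with the 10 past the study thresholds circled. The dashed lines mark a log2 fold change of 1 in each direction. Meg3, Malat1 and AU020206 are the circled lincRNAs with means above 100.

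Meg3, an imprinted transcript of the maternal Dlk1-Dio3 locus that is known as a growth suppressor, was the most abundant of the 10. Its values were 1405, 1171 and 1050 in untreated replicates 1, 2 and 3 and 5135, 3607 and 1380 in the treated libraries of the same numbers. The treated value was higher in each pair, by 3.65, 3.08 and 1.31 times, but amisulpride replicate 3 lay below untreated replicate 1, so the groups overlapped. The means were 1209 ± 180.5 and 3374 ± 1888 (SD, n = 3), with a log2 fold change of 1.30 ± 0.41 (SE) and a limma adjusted p of 0.249. With the replicate block the limma adjusted p was 0.0311, and over all alternatives it ranged from 8.71e-06 to 0.624. Without amisulpride replicate 1 the log2 fold change was 0.89, below the study threshold, and without amisulpride replicate 3 it was 1.84 with a limma adjusted p of 0.00647.

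Malat1, which lies in nuclear speckles beside splicing factors, had 770, 1057 and 628 normalized counts in untreated cells and 2201, 2665 and 777 in treated cells. As for Meg3, amisulpride replicates 1 and 2 stood above every untreated library and replicate 3 did not. Within the pairs the treated value was 2.86, 2.52 and 1.24 times the untreated one. The log2 fold change was 1.05 ± 0.42 (SE), with limma adjusted p of 0.371 and of 0.0612 with the replicate block (0.000275 to 0.754 over all alternatives). It was no longer past the study thresholds without untreated replicate 1 (1.02, unadjusted p = 0.0729 in limma), untreated replicate 3 (0.88), amisulpride replicate 1 (0.85) or amisulpride replicate 2 (0.71), and was 0.98 with equal library totals. Without amisulpride replicate 3 it was 1.60, with a limma adjusted p of 0.0152.

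AU020206, a spliced lincRNA on chromosome 7, went the other way. It stood at 727, 721 and 485 normalized counts in untreated replicates 1, 2 and 3 and at 440, 260 and 97 in the treated ones. All 3 treated libraries lay below all 3 untreated ones, and the value was lowest in amisulpride replicate 3. Means were 644 ± 138 and 266 ± 172 (SD, n = 3), the log2 fold change was -1.50 ± 0.45 (SE), and the limma adjusted p was 0.224, or 0.0109 with the replicate block (0.00761 to 0.568 over all alternatives). Leaving out amisulpride replicate 3 brought the log2 fold change to -0.90, below the study threshold.

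**Figure D3:**
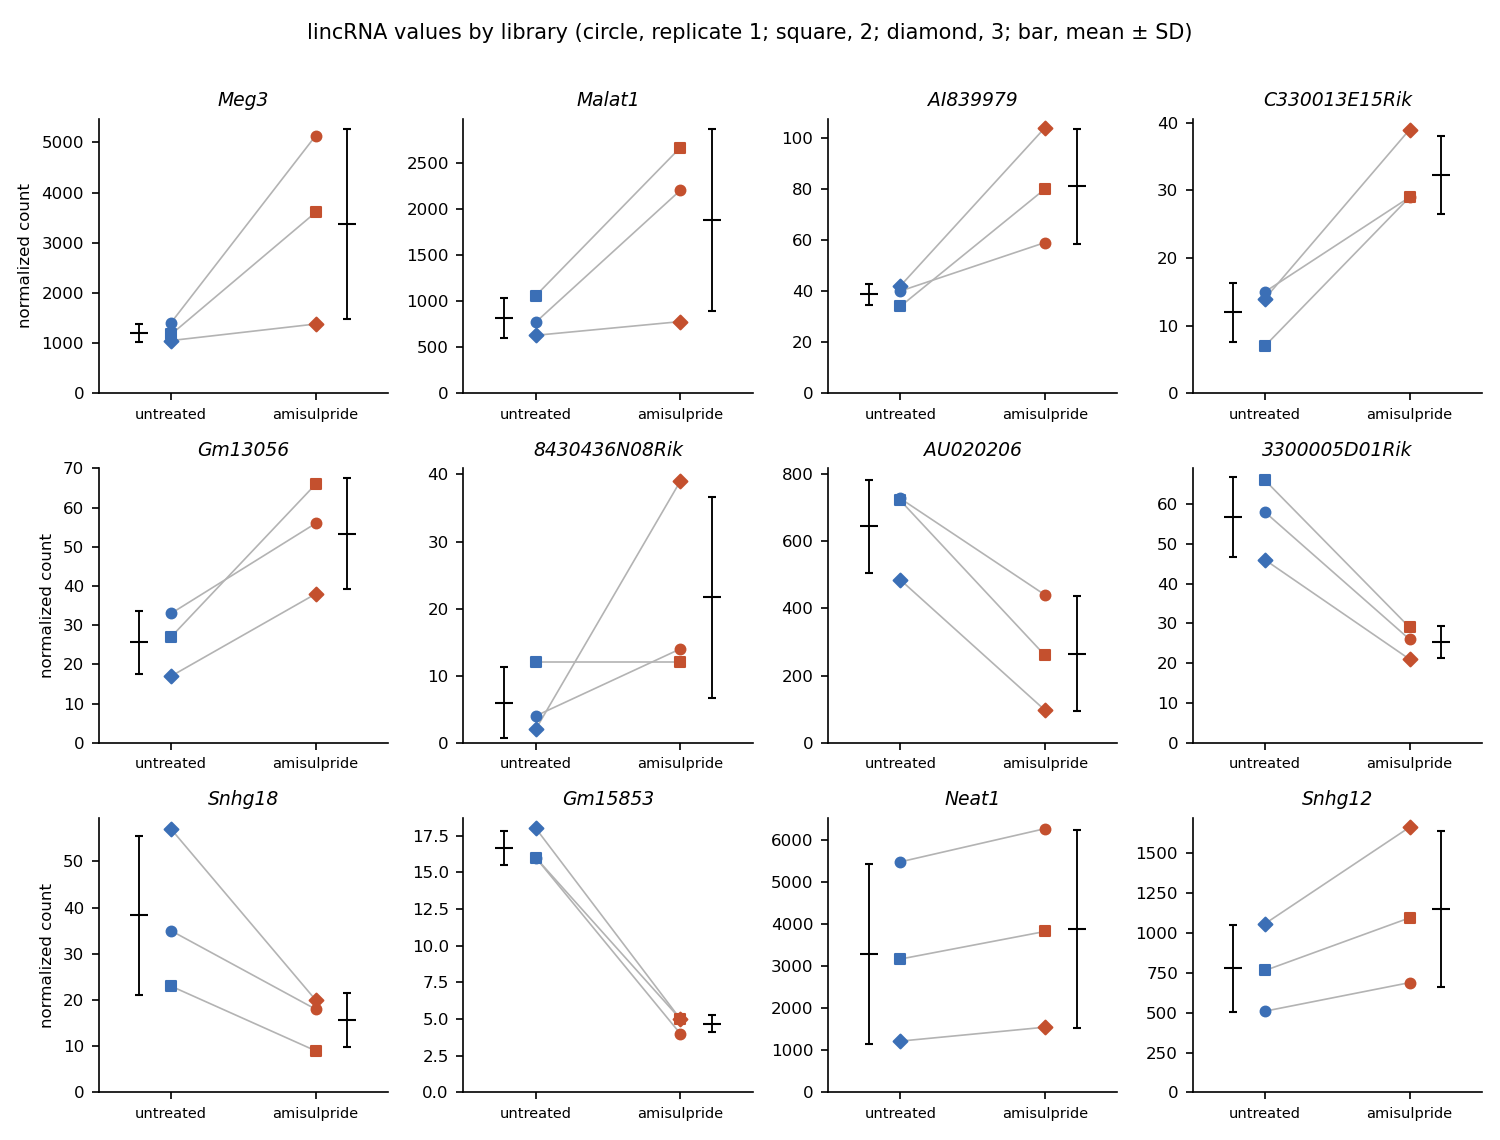
Normalized counts of 12 lincRNAs in each library, with untreated in blue, amisulpride in red, lines joining replicates of the same number, and bars giving the mean ± SD of 3 libraries. Panels are the 6 higher and the 4 lower lincRNAs past the study thresholds, followed by Neat1 and Snhg12. Equal values hide each other in C330013E15Rik (29 and 29) and in Gm15853 (16 and 16; 5 and 5). Neat1 and Snhg12 show a wide spread between replicates and near-parallel lines.

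The other 4 lincRNAs past the thresholds in the higher direction were of low level and have no well-known role. AI839979 had 40, 34 and 42 normalized counts in untreated cells and 59, 80 and 104 in treated cells, without overlap. Its log2 fold change was 1.02 ± 0.31 (SE; limma adjusted p = 0.232), and it was below the threshold of 1 without untreated replicate 2 (0.93) or amisulpride replicate 3 (0.82), with a pseudocount of 5 (0.95), with equal library totals (0.94) and with array weights (0.91). C330013E15Rik, which GENCODE M21 lists as a bidirectional promoter lncRNA, had 15, 7 and 14 against 29, 29 and 39. The treated libraries were again all above the untreated ones, the log2 fold change was 1.41 ± 0.43 (SE; limma adjusted p = 0.232), and this one stayed past the study thresholds without any single library.

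Gm13056 was measured at 33, 27 and 17 normalized counts in untreated libraries and at 56, 66 and 38 after amisulpride, again without overlap. The log2 fold change of Gm13056 was 1.04 ± 0.37 (SE; limma adjusted p = 0.311). Leaving out untreated replicate 3 gave 0.78, amisulpride replicate 1 gave 0.99 and amisulpride replicate 2 gave 0.87, all below the threshold of 1, as were 0.93 with a pseudocount of 5 and 0.97 with equal library totals. 8430436N08Rik had 4, 12 and 2 against 14, 12 and 39, so that untreated replicate 2 equaled amisulpride replicate 2. This lincRNA was at or below the value of 3 reads (2.50) in untreated replicate 3. Its log2 fold change of 1.77 ± 0.69 (SE; limma adjusted p = 0.363) was no longer past the thresholds without untreated replicate 1 (1.67), untreated replicate 3 (1.30) or amisulpride replicate 3 (1.27).

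The remaining 3 lincRNAs in the lower direction did not overlap between the groups. 3300005D01Rik had 58, 66 and 46 normalized counts without treatment and 26, 29 and 21 with amisulpride, with means of 56.7 ± 10.1 and 25.3 ± 4.04 (SD, n = 3). Its log2 fold change of -1.13 ± 0.33 (SE) had the lowest limma adjusted p of the lincRNAs, 0.208, and held past the study thresholds without any single library. Snhg18, host of the snoRNA Snord123, had 35, 23 and 57 against 18, 9 and 20. The log2 fold change was -1.22 ± 0.46 (SE; limma adjusted p = 0.350), and it was no longer past the thresholds without untreated replicate 1 (-1.23, unadjusted p = 0.0548 in limma), untreated replicate 3 (-0.89) or amisulpride replicate 2 (-0.88).

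Gm15853 had 16, 16 and 18 normalized counts in untreated cells and 4, 5 and 5 in treated cells. The gene was at or below the value of 3 reads (5.37) in amisulpride replicate 3. It entered the set through its untreated values alone, so a difference in this direction was needed for it to be listed with such low treated values. The same holds for 2310001H17Rik, with 10, 13 and 22 against 9, 5 and 5, which was not past the thresholds. The log2 fold change of Gm15853 was -1.64 ± 0.52 (SE; limma adjusted p = 0.251), and without any 1 untreated library the gene no longer passed the filter. A second gene of the same name, listed as antisense, overlaps it and was at 0 in every library.

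**Figure D4:**
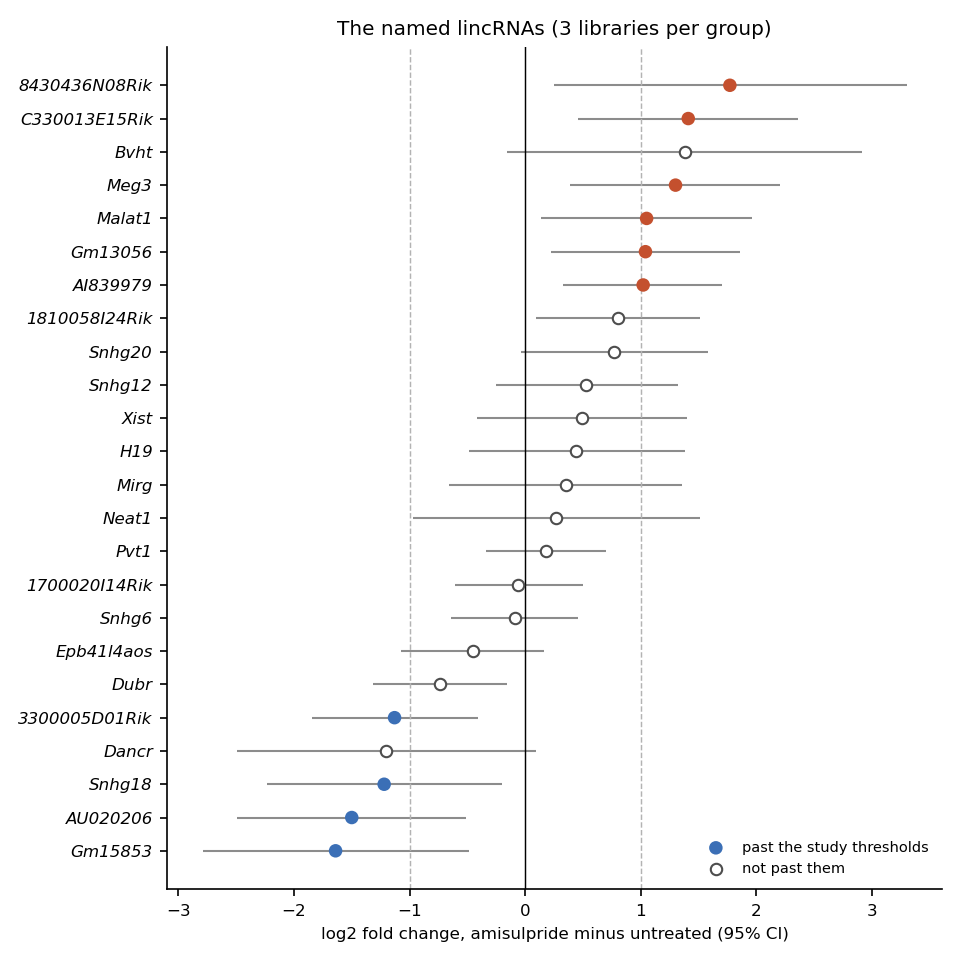
Log2 fold change (amisulpride minus untreated) of the 24 named lincRNAs, with 95% confidence intervals from limma and 3 libraries per group. Filled points are past the study thresholds (red, higher; blue, lower), open points are not. Open points with an interval that leaves out 0 are 1810058I24Rik and Dubr, whose estimates are within the dashed lines at 1.

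Several of the most abundant lincRNAs varied more between replicates than between the groups. Neat1 stood at 5479, 3169 and 1219 normalized counts in untreated replicates 1, 2 and 3 and at 6268, 3825 and 1550 in the treated ones. The highest untreated value was 4.50 times the lowest and the highest treated value 4.04 times the lowest, whereas within a pair the treated value was 1.14, 1.21 and 1.27 times the untreated one. The difference on the log2 scale was 0.27 ± 0.57 (SE; 95% CI, -0.97 to 1.51), and its SE fell to 0.26 with the replicate block without reaching the threshold (unadjusted p = 0.321 in limma). The ratio of Neat1 to Malat1 was 7.12, 3.00 and 1.94 in untreated replicates 1, 2 and 3 and 2.85, 1.44 and 1.99 in the treated ones.

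Snhg12, a host of several snoRNAs, was highest in the libraries numbered 3, where Neat1 was lowest, with 509, 764 and 1057 against 688, 1094 and 1662 normalized counts. The treated value exceeded the untreated one by 1.35, 1.43 and 1.57 times in the 3 pairs, and the groups overlapped. Its log2 fold change was 0.53 ± 0.36 (SE; limma adjusted p = 0.634), and it was 0.22 without amisulpride replicate 3 and 0.86 without amisulpride replicate 1. Snhg6, another snoRNA host, had 892, 567 and 680 against 645, 602 and 739, which is -0.09 ± 0.25 (SE) on the log2 scale with a 95% CI of -0.64 to 0.46.

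1810058I24Rik was listed as a lincRNA by the authors and as protein-coding by RefSeq. It had 573, 409 and 511 normalized counts in untreated cells and 585, 760 and 1423 in treated cells. All treated values were above all untreated ones, although by only 12 normalized counts in the closest case. Its log2 fold change was 0.80 ± 0.33 (SE; limma adjusted p = 0.393), and it was 1.08 without amisulpride replicate 1 and 0.44 without amisulpride replicate 3. The next coding gene on its strand, Nup205, 5058 bases away, was also high in amisulpride replicate 3, at 476 against 21 to 33 in the other libraries.

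Dubr, a lincRNA upstream of Dppa2, stood at 442, 294 and 361 without treatment and at 219, 175 and 261 with it. These groups did not overlap, and the log2 fold change of -0.74 ± 0.26 (SE; 95% CI, -1.32 to -0.16; limma adjusted p = 0.307) was within the study threshold. Pvt1, the neighbor of Myc, had 283, 258 and 218 against 286, 265 and 306, with a log2 fold change of 0.18 ± 0.24 (SE). 1700020I14Rik, known as Cyrano and for its pairing with the microRNA miR-7, had 263, 192 and 175 against 212, 186 and 199, with a log2 fold change of -0.06 ± 0.25 (SE; 95% CI, -0.61 to 0.50). For Pvt1 the interval was -0.34 to 0.70, so that changes as large as the study threshold lay outside the interval of both genes.

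Among imprinted and X-linked members, H19, the maternal partner of Igf2, had 93, 232 and 95 normalized counts in untreated cells and 97, 217 and 247 in treated cells. High and low values occurred in both groups, and the log2 fold change was 0.44 ± 0.43 (SE), with 0.19 without amisulpride replicate 3 and 0.88 without untreated replicate 2. Xist, which coats the inactive X chromosome, had 105, 57 and 63 against 179, 107 and 55, a log2 fold change of 0.49 ± 0.42 (SE). It was 0.09 without amisulpride replicate 1 and 0.93 without amisulpride replicate 3, so that the size of the Xist difference was set by single libraries. Mirg, a microRNA host downstream of Meg3 in the Dlk1-Dio3 locus, had 60, 32 and 33 against 90, 59 and 25. In Mirg as in Meg3, amisulpride replicate 3 was the lowest treated library, and its log2 fold change was 0.35 ± 0.46 (SE).

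Of the other snoRNA hosts, Snhg20 had 73, 34 and 31 against 71, 91 and 61 normalized counts. Its log2 fold change was 0.77 ± 0.37 (SE, limma adjusted p = 0.489), and it was 1.15 without untreated replicate 1. Dancr, named for its part in holding back differentiation, had 25, 11 and 13 against 11, 5 and 4, with -1.20 ± 0.59 (SE; limma adjusted p = 0.498). Epb41l4aos had 204, 131 and 187 against 99, 137 and 143, with -0.45 ± 0.28 (SE). All 3 overlapped between the groups. Bvht (Braveheart), known from heart development, was set by 1 library, with 27, 21 and 9 against 20, 29 and 170, and amisulpride replicate 3 was 8.50 times the lowest treated library. Its log2 fold change, 1.38 ± 0.70 (SE; limma adjusted p = 0.516), was 0.45 without that library.

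Lists written from general knowledge were read by role across all biotypes. Of all genes tested, 5.70% were past the study thresholds, 2.69% higher and 3.01% lower. Of the 2 nuclear body transcripts, Malat1 was past the study thresholds and Neat1 was not. Of 3 transcripts of the Dlk1-Dio3 locus, Meg3 was past them, while Rian, a snoRNA host between Meg3 and Mirg, had 144, 173 and 167 against 145, 162 and 57 normalized counts. The log2 fold change of Rian, -0.54, was opposite in sign to the 1.30 of Meg3. Among 19 snoRNA hosts tested, 0 were higher and 2 were lower, namely Snhg18 and Snhg4, and the median log2 fold change was -0.09, beside 0.00 for all genes. Of the 4 transcripts of the X inactivation center, only Xist was tested. Of 3 microRNA hosts tested, Dleu2 was higher, and of 4 further abundant transcripts, among them Pvt1 and 1700020I14Rik, none was past the thresholds.

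Transcripts of genes that encode paraspeckle proteins were read beside Neat1, and protein levels were not measured. None of the 5 given here was past the study thresholds, 3 of 5 had log2 fold changes below 0 and the median was -0.19. Pspc1, which encodes an RNA-binding protein of the paraspeckle, had 65, 64 and 83 normalized counts in untreated cells. It had 39, 29 and 38 in treated cells, without overlap (log2 fold change -0.98, limma adjusted p = 0.232). Sfpq and Nono, which encode core paraspeckle proteins, had log2 fold changes of 0.26 and -0.19, and Rbm14 and Hnrnpk had -0.53 and 0.34.

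Small RNA genes inside the lincRNAs gave a second view of where reads fell. The table held 43 such genes inside 15 of the lincRNAs on the same strand, of which 18 were at 0 in every library and 16 passed the filter. How reads shared by overlapping genes were assigned, and whether the counting used strand, is not given in the sources used here. In 2 cases the small gene had exactly the values of its host in all 6 libraries, namely Snora26 in Dancr and Mirlet7d in 6720427I07Rik, so a host and the small gene in it are not separate measurements.

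Mir1906-1 lies 3540 bases after the start of the 30726-base Meg3 gene. It had 266, 301 and 297 normalized counts in untreated cells and 1175, 866 and 292 in treated cells, between 18.9% and 28.3% of the Meg3 value in each library. Amisulpride replicates 1 and 2 were high and replicate 3 was within the untreated range, as for the host, and the log2 fold change was 1.21 (limma adjusted p = 0.295). A neighboring small gene, Gm27300, had 36, 61 and 64 against 237, 177 and 97, with no overlap between groups and a log2 fold change of 1.60 (limma adjusted p = 0.103). In both small genes, as in Meg3 itself, amisulpride replicate 1 was the highest library and replicate 3 the lowest treated one. In the mature sequence of mmu-miR-1906 from RefSeq, shown because its gene carried these reads, the seed (bases 2 to 8) is in capitals.
mmu-miR-1906: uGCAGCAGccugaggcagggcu

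The mature microRNA itself is too short for this kind of library, so the values are not its level. Which longer RNAs gave these reads was not tested. Mirg carries 14 microRNA genes, and 13 of them were at 0 in every library, while Mir377 had 3 to 14 normalized counts. In Snhg12 the snoRNA genes Snora61 and Snord99 stood at 84.1% to 88.9% and 83.0% to 86.7% of the host value in each library. These 2 genes do not overlap, and together they exceed the host value, so the percentages are not separate shares of it. Snord87 stood at 102% to 105% of its host Snhg6.

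Other small genes differed from their hosts. In Neat1, the small gene Gm27533, 1041 bases after the start, had 158, 120 and 46 normalized counts against 121, 100 and 36, lower in each pair where Neat1 was higher, and it held 1.93% to 3.79% of the Neat1 value. The groups overlapped for both. The snoRNA Snord123 inside Snhg18 had 164, 235 and 232 normalized counts in untreated cells and 253, 385 and 191 in treated cells, 407% to 4278% of the host value. The groups overlapped, and the log2 fold change of Snord123 was 0.35, whereas that of the host was -1.22. In amisulpride replicate 2 the snoRNA was highest, at 385, and the host lowest, at 9.

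**Figure D5:**
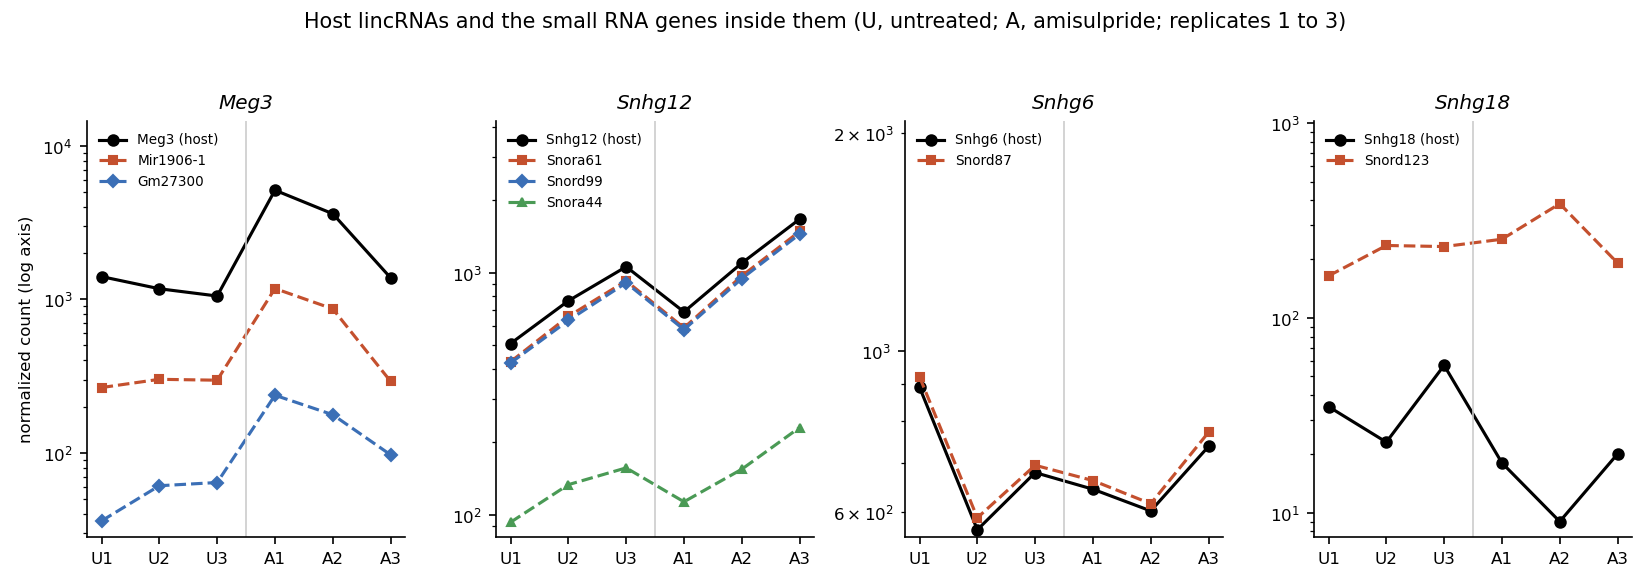
Normalized counts (log axes) of 4 host lincRNAs (black) and of small RNA genes inside them (dashed) in untreated (U1 to U3) and amisulpride (A1 to A3) libraries. The small genes run parallel to Meg3, Snhg12 and Snhg6, whereas Snord123 lies above Snhg18 and is highest where Snhg18 is lowest.

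The same question was asked of coding genes, since reads of an overlapping or upstream gene can be counted for a lincRNA. Of the 77 lincRNAs, 4 overlapped a coding gene on the same strand: BC002059 and Gm6712 within the annotated span of Chd1, Gm22 within Gm20388, and 3222401L13Rik with 3 predicted genes. BC002059 had 107 to 160 normalized counts and Gm22 had 17 to 40, and none of the 4 was past the study thresholds. A further 7 overlapped a coding gene on the opposite strand only, among them Gm15853 with Tada1, Snhg6 with Mcmdc2 and 2700012I20Rik with Sin3a. Outside the 4, another 10 began within 5 kb downstream of a coding gene on the same strand, including Neat1, 4224 bases after Frmd8, and Gm15853, 4704 bases after Pogk.

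None of the 10 lincRNAs past the thresholds overlapped a coding gene on the same strand, and without the 4 that did, 6 were higher and 4 lower among 73. Without overlaps on either strand 6 were higher and 3 lower among 66, as Gm15853 left the set. Some of the nearest coding neighbors on the same strand are given beside them. Dlk1, 77665 bases from Meg3, was at 48, 41 and 29 normalized counts in untreated cells and at 55, 36 and 4 in treated cells, with a log2 fold change of -0.86 against 1.30 for Meg3. Frmd8 had 188, 156 and 199 against 125, 112 and 131. Sv2b, the neighbor of AU020206, was at 0 in all libraries but untreated replicate 3, where it had 1.

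Annotation of the lincRNAs has moved since the table was made. GENCODE M21 held 76 of the 77 gene identifiers, 70 still as lincRNA and 6 under other biotypes, which are bidirectional promoter lncRNA for 3, antisense for 2 and processed transcript for 1. In RefSeq, 61 matched by symbol and position, of which 53 were lncRNA, 5 protein-coding and 3 pseudogenes. The 5 were Gm22, Gm6712, 1810058I24Rik, C330006A16Rik and D930016D06Rik. Gm42418, now a ribosomal RNA pseudogene, had 151, 71 and 108 against 147, 59 and 63 normalized counts, while its neighbor Gm26917 had 114, 128 and 135 against 184, 163 and 265, without overlap (log2 fold change 0.67; limma adjusted p = 0.385).

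Markers of the labeled cell type were present. All 9 fibroblast markers were tested and none was past the study thresholds. Their sum was 44239 to 59170 normalized counts in untreated and 51150 to 90880 in treated libraries, highest in amisulpride replicate 3. Blood cell markers summed to 3453, 1993 and 2443 in untreated replicates 1, 2 and 3 and to 3642, 2075 and 1789 in the treated ones, mostly from Lyz2, which was 1394 to 3287. Of the 8, 5 were tested, with log2 fold changes above 0 for 2 and below 0 for 3 (median -0.14). Only Csf1r was past the study thresholds (lower), with 114, 93 and 76 against 41, 23 and 100. Its groups overlapped, and its limma adjusted p was 0.456. Adgre1 had a log2 fold change of 0.83 in the other direction. Cd3e and Cd79a were at 0 in every library. Endothelial markers summed to 1 to 13 normalized counts, with Cdh5 at 0, muscle markers to 11 to 46, and chondrocyte markers, mostly Sox9, to 244 to 561. As for Neat1, the blood cell sum was highest in the library numbered 1 of each group, and its part in the lincRNA values was not tested. Fewer cells of a type and less RNA per cell cannot be told apart in such libraries.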

How the data were processed

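Synovial fibroblasts of hTNFtg mice were profiled by 3′ mRNA sequencing on an Ion Proton, with 3 untreated and 3 amisulpride libraries. Reads were mapped by the authors to mm10 with TopHat2, then Bowtie2, and counted per gene with GenomicRanges; versions, strand setting and the handling of shared reads are not given in the sources used here. The values deposited by the authors are a score, read counts divided by 1 factor per library and rounded. The authors also deposited each gene's GC content, as a fraction; its median over the lincRNAs was 46.5%. A further 12 columns of values per library were not used, nor were the authors' group means, fold changes, p-values and FDR of DESeq.

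Genes with at least 10 normalized counts in at least 3 libraries entered limma (version 3.58.1, R 4.3.3), fitted to log2(value + 1) with trended moderation (prior df 7.31) and Benjamini-Hochberg adjustment. Fold changes are on that scale, which understates changes of low genes. The fit was tested on simulated counts with a fixed dispersion and no pairing. That test does not cover paired libraries or a library that stands apart. An exact permutation test cannot go below p = 0.1 with 3 against 3, so none was used. Same-numbered libraries had correlated deviations over all genes (0.229, 0.240 and 0.201; other pairs -0.149 to -0.078), so the block was taken as a pairing.

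Depth was estimated from the steps between low values (for untreated replicate 1 uncertain); floors cover counting error only, since reads carried no molecular identifiers. Named lincRNAs are those past the study thresholds, the 10 most abundant and those with widely used names, with their nearest or overlapping coding genes. Small RNA genes inside the named hosts and other genes given beside a result were named after their values were seen. The lincRNAs and lists were chosen with earlier results of these data known. A few genes of these lists and neighbors are not reported here. Alternatives covered the pseudocount, filter, scaling, array weights, replicate block, overlaps and each library left out. Sequences are from GENCODE M21 transcripts and RefSeq tables of GRCm38.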

Additional observations from a re-analysis of the deposited data

How the results depend on the processing

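The number of lincRNAs past the study thresholds was 10 and stayed within 1.5 times under each pseudocount, filter, scaling, weighting and overlap alternative. Leaving out 1 library gave 5 to 12, with 5 without untreated replicate 3. The replicate block gave 11, and, chosen after the data were seen, the block without pair 2 gave 5. The number with an adjusted p under 0.05 was 0, and 0 also under 0.1. It was 2 with array weights (Meg3 and Malat1), 2 with the replicate block (Meg3 and AU020206), 3 with the block without pair 3, and 0 to 2 when 1 library was left out. Under every alternative fit the share of the lincRNAs past the study thresholds (7.04% to 21.1%) was above that of all genes in the same fit (4.57% to 8.11%), and the gap was narrowest with the block without pair 2 (8.20% against 7.26%). The median log2 fold change, 0.25, was 0.01 to 0.26 when 1 library was left out. Over 24 named lincRNAs, 397 alternative values kept direction and call in 347 cases, lost the call in 31, gained it in 10 and reversed in 9. Those 9 were Neat1 without untreated replicate 3 (-0.32) and without amisulpride replicate 1 (-0.18), Snhg6 without untreated replicate 1 (0.09) and with the block without pair 1 (0.10), 1700020I14Rik with array weights (0.02), without untreated replicate 1 (0.12) and with the block without pair 1 (0.07), H19 with the block without pair 3 (-0.02), and Mirg without amisulpride replicate 1 (-0.05). Leaving out 1 library gave -0.32 to 0.82 for Neat1, -0.24 to 0.09 for Snhg6, -0.18 to 0.12 for 1700020I14Rik, -0.05 to 0.85 for Mirg, 0.08 to 0.26 for Pvt1 and -0.64 to -0.29 for Epb41l4aos. The cause was not tested. The block changed no other call of a named lincRNA except Bvht, which passed the study thresholds with it (log2 fold change 1.38, unadjusted p = 0.0370 in limma). Depth limits the lowest lincRNAs, 19 of which had a library at or under 3 reads.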

Other observations

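Long noncoding RNAs of other biotypes were not part of the set of lincRNAs and are given here as values, chosen after they were seen. Firre, an X-linked transcript that takes part in nuclear organization and is listed as a processed transcript, had 20, 28 and 17 normalized counts in untreated cells and 98, 124 and 91 in treated cells. The groups were far apart, with a log2 fold change of 2.23 ± 0.32 (SE; limma adjusted p = 0.0160). Dleu2, host of the miR-15a and miR-16-1 genes, had 24, 7 and 17 against 38, 68 and 54, without overlap (log2 fold change 1.79; limma adjusted p = 0.154). Snhg4, a snoRNA host, was lower, with 113, 136 and 72 against 52, 54 and 27 (log2 fold change -1.27; limma adjusted p = 0.202, or 0.0341 with the replicate block).

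Of 84 processed transcripts tested, 5 were higher and 4 lower past the study thresholds (10.7%, beside 5.70% of all genes). Of 58 antisense transcripts, 8 were higher and 1 lower (15.5%). Abhd11os, the antisense transcript of Abhd11, had 30, 32 and 7 against 68, 155 and 54 normalized counts, without overlap (log2 fold change 2.06; limma adjusted p = 0.182, or 0.00688 with the replicate block). Whether antisense reads were kept apart from those of the partner gene was not tested.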
